A study of Sus scrofa with 32 samples.

Results

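PPARG (ENSSSCG00000011579), which encodes peroxisome proliferator-activated receptor gamma, was followed as 1 gene of the 31908 listed, by the row of its Ensembl identifier in the fat and in the liver table. RNA had been sequenced from fat and liver of female Złotnicka White pigs of 180 days, a Polish native breed, kept under the same feeding and housing. The pigs had been grouped by high (HFD) or low (LFD) fat deposition, and each of the 4 combinations, fat HFD, fat LFD, liver HFD and liver LFD, held 8 libraries. No treatment or engineered allele is named for any group, the fat depot is not named, and the sample descriptions do not tie a fat library to a liver library of the same pig. The questions were how PPARG differed between the tissues, whether it differed between HFD and LFD pigs in each, and which genes varied with it between fat libraries.

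PPARG is a nuclear receptor that binds fatty acids and their derivatives, pairs with a retinoid X receptor (RXRA, RXRB or RXRG) and switches on genes of fat storage. It is required for precursor cells to become adipocytes, where C/EBP factors raise its expression and are in turn raised by it. In adipocytes its known targets include the fatty acid carrier FABP4, lipoprotein lipase (LPL), the droplet coat protein PLIN1 and the hormone adiponectin (ADIPOQ). Healthy liver is known to use mainly the related receptor PPARA.

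In the RefSeq annotation of Sscrofa11.1, the build of the processing notes, PPARG lies on the plus strand at chr13:68301566-68433951. Its 8 transcripts begin at 8 start sites, have 7 or 8 exons and share 6 of them. They use 2 coding starts. The start in exon 1 of transcript NM_214379.1 gives a protein of 504 residues, as in the adipocyte form PPARG2, and the other 7 transcripts give 475 residues. Reads were counted per gene, so the forms were not separated and every level below is their sum. The 250 bases before the first start site are shown because they precede transcripts of the shorter protein. They hold 72.4% G or C, against a mean of 58.3% over the 300-base windows (250 bases before and 50 after the start) of 19556 RefSeq protein-coding genes, and no match to the C/EBP-like motif TTNNGNAA on either strand.
chr13:68301316-68301565: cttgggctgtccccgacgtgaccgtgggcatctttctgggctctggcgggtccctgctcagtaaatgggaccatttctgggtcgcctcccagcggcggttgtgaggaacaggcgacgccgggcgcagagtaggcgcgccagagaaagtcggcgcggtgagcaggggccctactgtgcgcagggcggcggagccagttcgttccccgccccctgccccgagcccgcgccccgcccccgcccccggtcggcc

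The 250 bases before the start of the longer form hold 45.6% G or C and 3 matches to TTNNGNAA, beginning 241, 124 and 45 bases before the start. The match at 241 bases is on the minus strand, the other 2 are on the plus strand, and no 2 of them overlap. A match of this short motif was present in 35.2% of the 19556 windows. The 30 bases around each match are shown because C/EBP factors are known regulators of PPARG2, with the motif in capitals and all bases written along the plus strand.
chr13:68363749-68363778: tgtaccaagtcTTGCCAAAgcagtgaacaa
chr13:68363866-68363895: cctctccagtaTTTGGAAActgatgtcctg
chr13:68363945-68363974: atggattggccTTTTGCAAgaaatagacaa

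Total counts ran from 9409976 to 19484621 in fat and from 19837882 to 30457374 in liver. The adipocyte marker list had 6 of 6 genes higher in fat and the hepatocyte list 7 of 7 lower (edgeR, adjusted p under 0.05). Of all genes tested, 38.5% were higher and 40.9% lower in fat. Stromal markers were also higher in fat (6 of 6), and macrophage (7 of 7) and T cell markers (4 of 4) lower. Fat HFD replicate 2 stood apart: 6 genes without a symbol took 77.9% of its counts, against 7.23% to 34.4% in the other 15 fat libraries. It also had the lowest summed adipocyte markers among fat libraries, 8729 CPM (counts scaled to a library of 1000000), the highest summed stromal markers, 21530, and 1155 CPM of hepatocyte markers against 127.9 to 359 in the other fat libraries. The adipocyte markers did not move together there. In counts scaled to the mean fat library, FABP4 was lowest there at 12002, LIPE was highest at 41850, and ADIPOQ, at 58715, was not the lowest. In the stromal list COL3A1 and COL1A1 had by far the most counts, so these sums follow a few abundant genes. Liver HFD replicate 2 had 63.8 CPM of adipocyte markers, against 11.4 to 28.3 in the other livers. Skeletal muscle markers were also highest there, at 3.41 CPM against 0 to 0.387 in the other livers. In fat HFD replicate 2 the skeletal muscle markers had 10.86 CPM, against 0.388 to 2.33 in the other fat libraries. Results are therefore given with and without these 2 libraries where they bear on them.

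PPARG was abundant in fat and close to the detection limit in liver. In fat HFD replicates 1 to 8 it reached 2717, 1423, 2916, 3398, 2623, 2395, 3187 and 2298 normalized counts, that is, counts scaled to the mean fat library after trimmed-mean (TMM) normalization. In fat LFD replicates 1 to 8 the values were 2774, 2536, 3691, 2458, 2957, 2307, 2526 and 2510. The lowest value belongs to HFD replicate 2, the highest to LFD replicate 3, and the ranges of the groups overlap. In liver the raw counts were 1, 18, 5, 4, 4, 4, 8 and 3 in HFD replicates 1 to 8, and 8, 11, 3, 1, 7, 1, 3 and 0 in LFD replicates 1 to 8. Both liver groups overlap over most of their range, and the most reads were in replicate 2 of each group.

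**Figure D1:**
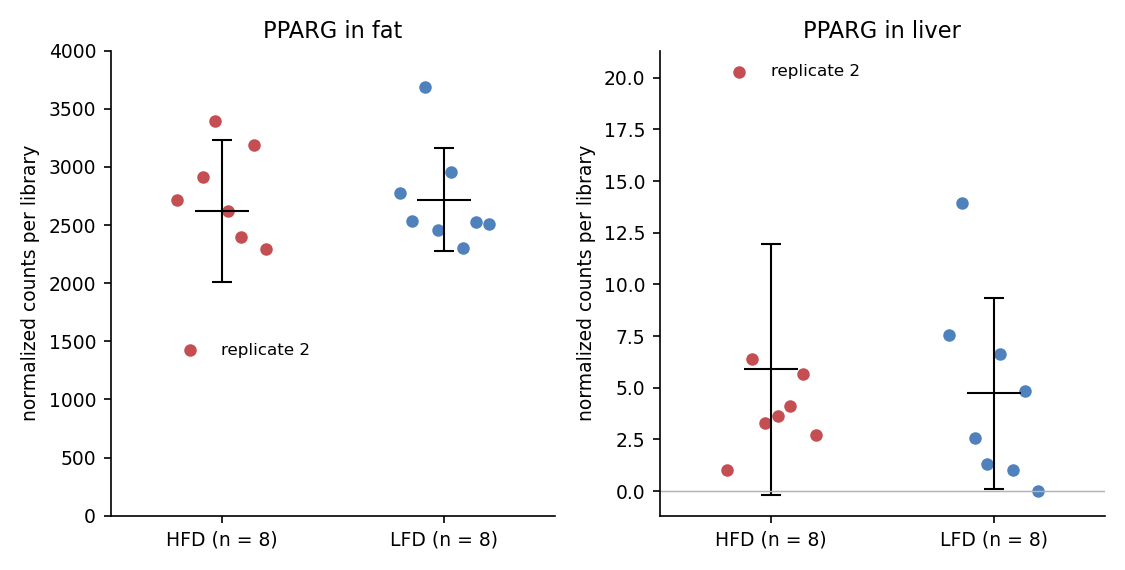
PPARG in each library as normalized counts (y axes, scaled to the mean library of each tissue), with fat at left and liver at right. Points are libraries, and the black bar and whiskers are the mean and SD of 8. Fat libraries lie between 1423 and 3691 and liver libraries between 0 and 20.3, and HFD and LFD overlap in both tissues.

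On a scale common to both tissues, PPARG had 126.5 ± 28.1 CPM in fat HFD, 131.6 ± 20.7 in fat LFD, 0.292 ± 0.300 in liver HFD and 0.236 ± 0.232 in liver LFD (SD, n = 8 each). The order of the 4 levels was thus fat LFD, fat HFD, liver HFD and liver LFD, and only the step from fat to liver exceeded the spread between libraries. Averaged over HFD and LFD, PPARG was higher in fat by 8.98 on the log2 scale (SE 0.27, 95% interval 8.44 to 9.52), a 505-fold difference, with an adjusted p of 2.27e-25 in edgeR's quasi-likelihood test. By size this was the gene ranked 59 of 14324 tested. PPARG passed the count filter of this fit through its fat counts and did not pass it in liver alone. All genes together were called about equally often in both directions, 38.5% higher and 40.9% lower in fat at an adjusted p under 0.05. Fewer cells expressing PPARG and less PPARG RNA per cell cannot be told apart in tissue RNA, and tissue and sequencing lane cannot be told apart here.

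To set different genes side by side, levels were divided by the length of the longest RefSeq transcript. PPARG reached 61.0 ± 11.4 CPM per kilobase in fat (SD, n = 16). It stood above RXRA at 29.1 ± 9.62, PPARD at 24.1 ± 11.9, PPARA at 13.7 ± 14.5, RXRG at 7.38 ± 2.71 and RXRB at 5.54 ± 0.647. The ranges of PPARG (34.6 to 83.8) and of the next gene, RXRA (15.6 to 58.7), overlapped, and the ranges of RXRA, PPARD and PPARA overlapped too. On this scale PPARG had the highest mean level of these receptors in fat. The order depends on the annotated lengths, which were 2115 bases for PPARG, 8915 for RXRA and 1404 for PPARA. Before division by length, RXRA was above PPARG in fat. It had 6050 normalized counts in HFD and 4630 in LFD, against 2620 and 2720 for PPARG. In liver the order per kilobase was different, with RXRA at 52.6 ± 6.35, PPARA at 37.7 ± 20.2, PPARD at 10.5 ± 2.38, RXRB at 5.09 ± 0.369, PPARG at 0.125 ± 0.123 and RXRG at 0.0628 ± 0.084. The ranges of the last 2 overlapped.

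Among the partners and relatives of PPARG, 2 of 5 were higher and 2 lower in fat (edgeR, adjusted p under 0.05), beside 38.5% and 40.9% of all genes tested. RXRG, one of the 3 retinoid X receptors it can pair with, was higher in fat by 6.85 (SE 0.33) on the log2 scale, whereas RXRA was lower by a log2 difference of -0.87 (SE 0.12). RXRB differed by 0.12 and did not pass (adjusted p = 0.0669). Of the 2 related receptors, PPARD, which is present in most tissues, was higher in fat by 1.20 (SE 0.20), and PPARA, which drives fatty acid oxidation in liver, was lower with a log2 difference of -1.53 (SE 0.28). Of 13 coregulators, 5 were higher and 6 lower in fat, so both lists were near the shares of all genes. The coactivator PPARGC1A, which promotes mitochondrial and gluconeogenic programmes, was lower with a log2 difference of -7.70 (SE 0.22), while its relative PPARGC1B was higher by 1.22 (SE 0.21).

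Of 14 factors that promote adipogenesis, 9 were higher and 3 lower in fat, beside 38.5% and 40.9% of all genes tested. EBF2 and EBF1, factors of the adipocyte precursor, differed by 9.74 and 6.28 on the log2 scale, and KLF4, an early activator of CEBPB, by 6.18. CEBPA, which maintains PPARG expression in mature adipocytes, was higher by 1.70 (SE 0.15), and CEBPB, an earlier factor of the same family, by 0.66 (SE 0.13). CEBPD was lower, with a log2 difference of -0.81 (SE 0.13), as were KLF15 and the liver X receptor NR1H3, at -1.89 and -1.77. SREBF1, a regulator of lipid synthesis, differed by -0.02 (SE 0.21, adjusted p = 0.937). Of 8 factors tested that restrain adipogenesis, 7 were also higher in fat and 1, KLF3, was lower, so factors of both roles were mostly higher in the tissue with more PPARG.

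Of the 21 known PPARG targets that could be matched, 16 were higher and 3 lower in fat, beside 38.5% and 40.9% of all genes. Their median log2 difference was 4.02, against -0.02 over all genes tested. The largest were LPL with 11.7 (SE 0.56), FABP4 with 11.3 (SE 0.46), ADIPOQ with 11.3 (SE 0.67), the hormone-sensitive lipase LIPE with 10.0 (SE 0.26) and PLIN1 with 8.95 (SE 0.24). CIDEC, which fuses lipid droplets, differed by 5.83 (SE 0.19) and the insulin-regulated glucose transporter SLC2A4 by 4.69 (SE 0.29). The 3 lower genes were PCK1, the gluconeogenic enzyme that also makes glycerol phosphate in fat, at -3.69 (SE 0.51), AGPAT2, an acyltransferase of triglyceride synthesis, at -2.001, and the acyl-CoA synthetase ACSL1 at -0.50. ANGPTL4, an inhibitor of LPL, differed by 0.31 (SE 0.19) and G0S2, an inhibitor of lipolysis, by 0.22 (SE 0.30), and neither passed. Several of these targets are themselves adipocyte or hepatocyte genes, and the part of cell composition in the list's median was not tested.

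Of 6 tested enzymes that make candidate ligands, 3 were higher and 1 lower in fat. Prostacyclin synthase PTGIS differed by 5.13 on the log2 scale, the inducible cyclooxygenase PTGS2 by 3.85 and PTGDS, which makes prostaglandin D2, a precursor of a PPARG ligand, by 2.52. The constitutive cyclooxygenase PTGS1 was lower, at -0.66. Over all 6 lists, 42 of 67 tested genes were higher and 16 were lower in fat, beside 38.5% and 40.9% of all genes tested.

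**Figure D2:**
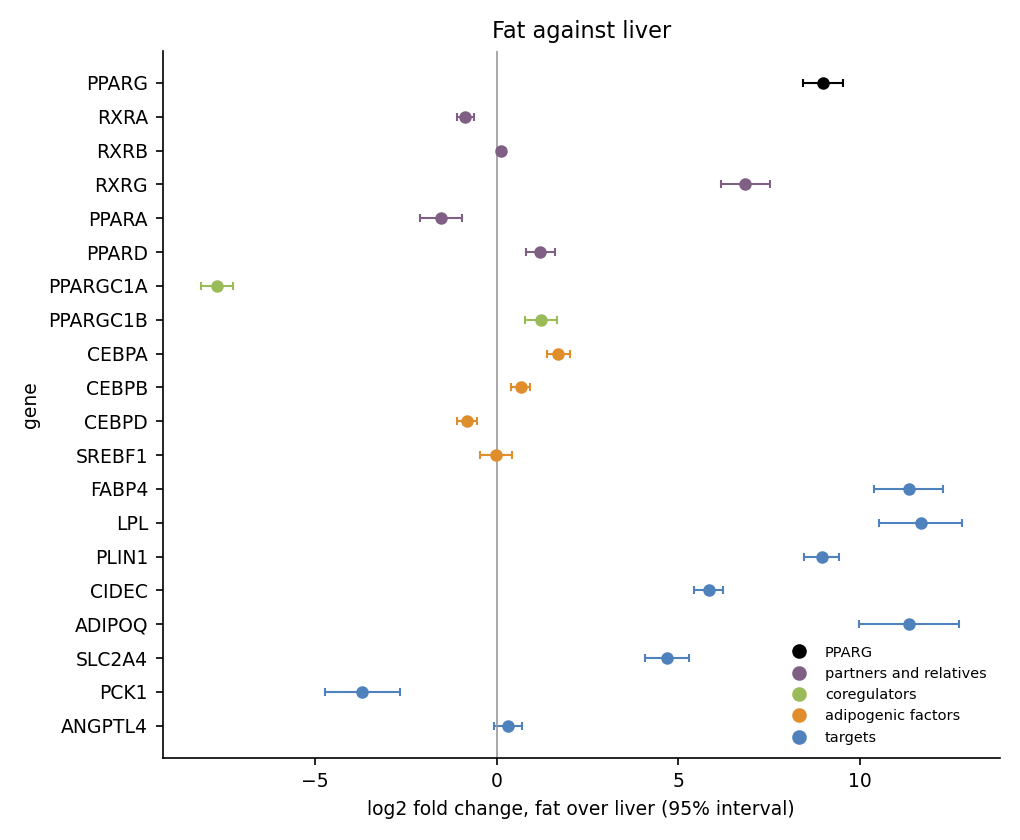
Log2 fold change of fat over liver (x axis) for PPARG and the named pathway genes (y axis), averaged over HFD and LFD. Points are edgeR estimates from 32 libraries, whiskers their 95% intervals, and colours the gene's role. PPARG at 8.98 lies beside PLIN1 at 8.95, while PPARGC1A at -7.70 and PCK1 at -3.69 lie furthest on the liver side.

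HFD and LFD fat had similar PPARG levels. The means were 2620 ± 611 normalized counts in HFD and 2720 ± 440 in LFD (SD, n = 8 each). The log2 fold change was -0.05 (SE 0.16, 95% interval -0.38 to 0.27), with an adjusted p of 0.978 in edgeR and p = 0.659 in the two-sided exact permutation test over 12870 assignments of the libraries. Without HFD replicate 2, the HFD mean was 2791 ± 403 (n = 7) and the sign turned, with a log2 fold change of 0.03 (95% interval -0.21 to 0.28, adjusted p = 0.982 in edgeR, exact permutation p = 0.726). The sign also turned without LFD replicate 3, the highest library, to 0.02. The coefficient of variation between libraries was 23.3% in HFD and 16.2% in LFD. It was 14.4% in HFD without replicate 2, so the order of the groups changed when that library was left out. The LFD value without its own extreme library, replicate 3 with 3691 normalized counts, was not computed. In the fit of all 16 libraries the interval spans from 1.30 times lower to 1.21 times higher in HFD, so differences within those limits were not resolved by 8 libraries a group.

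The pathway genes gave no call between HFD and LFD fat either: 0 of 66 tested list genes passed in edgeR, and 0 passed with DESeq2. In edgeR 0% of the 13082 genes tested passed, while DESeq2 passed 50 genes of the whole table and limma-voom 1. At an unadjusted p under 0.05 the lists held 6 of 66 genes (9.09%), beside 6.65% of all genes, so their share was near the background. The 6 were, with their log2 differences, RXRG at -0.53, CEBPB at -0.35, the cytokine-signalling factor STAT5A at -0.49, PCK1 at -2.10, PTGDS at 1.18 and PTGS1 at 0.56, with adjusted p-values from 0.492 to 0.712 in edgeR. STAT5A had 965 ± 210 normalized counts in HFD and 1350 ± 254 in LFD, and PCK1 1052 ± 1106 and 4482 ± 4737 (SD, n = 8 each). The SDs of PCK1 are as large as its means.

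The targets as a list showed no shift with fat deposition. Their median log2 difference was 0.01, beside 0.02 for all genes, and 11 of 21 were above 0. Of all 13082 genes tested, 6996 were above 0. ADIPOQ had 71927 ± 13590 normalized counts in HFD and 91592 ± 15258 in LFD (log2 difference -0.35, SE 0.18, adjusted p = 0.774 in edgeR), and LPL 75506 ± 22786 and 67431 ± 16355 (log2 difference 0.16, SE 0.23). Among the 6 pathway lists the coregulators had the highest median, 0.31, and 9 of 12 were above 0, but without HFD replicate 2 the median was -0.05 and 4 of 12 were above 0. Without that library, the values of CREBBP and EP300, acetyltransferases recruited by the receptor, went from 0.41 and 0.40 to -0.12 and -0.03. PPARA likewise went from 0.73 to 0.12, and the median of the targets was -0.03 with 10 of 21 above 0.

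**Figure D3:**
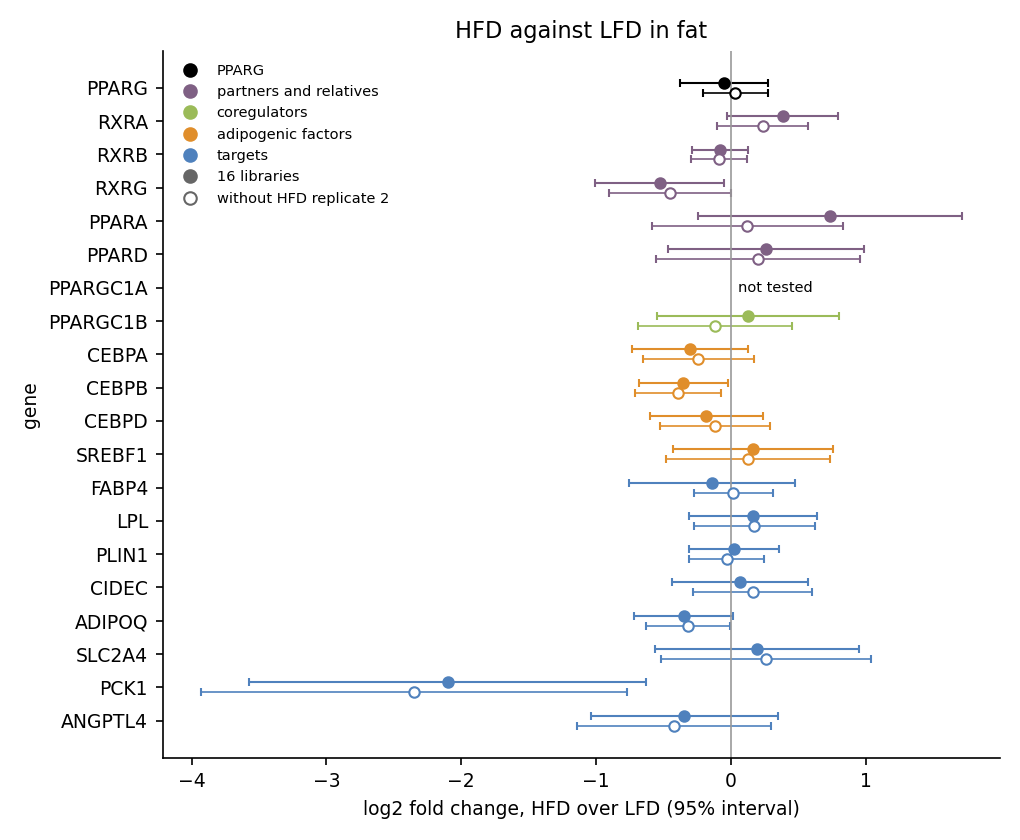
Log2 fold change of HFD over LFD fat (x axis) for PPARG and the named pathway genes (y axis). Filled points are edgeR estimates from 16 libraries and open points those without HFD replicate 2, with 95% intervals, coloured by role. PPARG lies at -0.05 and 0.03, PPARA moves from 0.73 to 0.12, and PCK1 is lowest at -2.10.

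In liver, PPARG summed to 47 counts in the 8 HFD libraries and 34 in the 8 LFD libraries. Over all 16 livers this was 81 of 398150058 counts, or 0.203 CPM of the unscaled total, with an exact Poisson 95% interval of 0.162 to 0.253 that covers counting error only. In LFD replicate 8, the 1 liver without a PPARG read, a count of 0 allows up to 0.107 CPM (3 counts). Too few reads were present for PPARG to pass edgeR's filter on low counts, so the groups were compared by their mean normalized counts. These were 5.88 ± 6.05 in HFD and 4.73 ± 4.62 in LFD (SD, n = 8 each), a log2 ratio of means of 0.32 with p = 0.679 in the two-sided exact permutation test. Without HFD replicate 2 the HFD mean was 3.83 ± 1.81 and the log2 ratio -0.31 (exact permutation p = 0.685), and without LFD replicate 2 it was 0.79 (exact permutation p = 0.426). The direction of the liver difference therefore rested on 1 library, and no difference was detectable at this depth. The 2 sequencing runs of the livers gave PPARG at 0.206 and 0.202 CPM.

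Some adipocyte markers were high in the liver with the most PPARG reads. HFD replicate 2, with 18 PPARG counts, held 365 counts of ADIPOQ against 2 to 86 in the other 15 livers, 214 of FABP4 against 5 to 65 and 11 of LEP, the fat hormone leptin, against 0 to 8. LEP was at 0 in 12 of these 15. PLIN1 and LIPE were also highest there, with 216 counts against 34 to 121 and 69 against 12 to 52, whereas CIDEC, with 267 counts, lay within the 133 to 473 of the others. In fat, PPARG had a median of 32.2 counts per 1000 ADIPOQ counts (range 22.1 to 50.8, n = 16), a ratio at which 365 ADIPOQ counts correspond to 11.7 PPARG counts. LFD replicate 2 differed, with 11 PPARG counts beside 12 of ADIPOQ, which at the same ratio correspond to 0.386. LFD replicates 1 and 5 likewise held 8 and 7 PPARG counts beside 2 and 3 of ADIPOQ. How much of the liver PPARG came with adipocyte RNA was not tested.

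**Figure D4:**
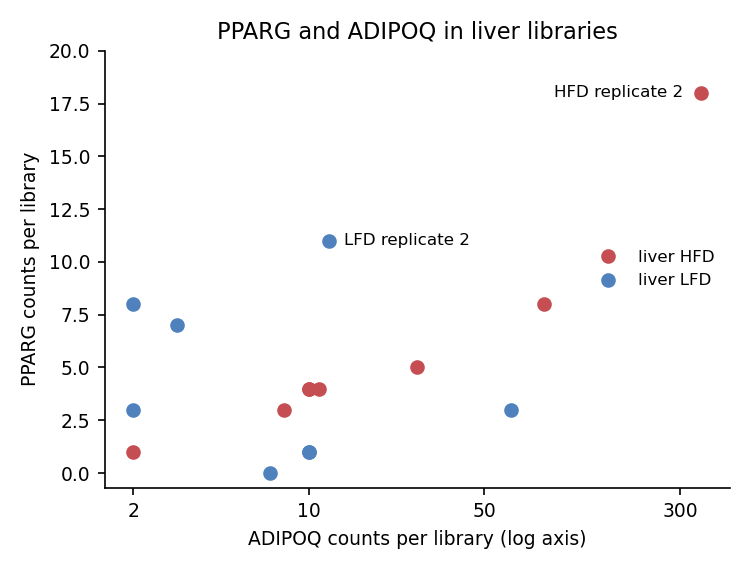
PPARG counts (y axis) against ADIPOQ counts (x axis, log scale) in the 16 liver libraries, coloured by group. HFD replicate 2 lies at 365 ADIPOQ and 18 PPARG counts, and LFD replicate 2 at 12 and 11.

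The pathway lists gave no call in liver: 0 of 62 tested genes passed in edgeR, as did 0% of the 13051 genes tested, of which 754 had an unadjusted p under 0.05. DESeq2 passed 5 genes of the whole table. LPL had a log2 difference of 2.36 (SE 0.82) and FABP4 of 1.66 (SE 0.58) in HFD, both with an adjusted p of 0.834 in edgeR, and both were highest in HFD replicate 2, the liver with the most PPARG. As log2 ratios of mean normalized counts the values were 2.40 for LPL and 1.71 for FABP4, and without that library 1.19 and 0.65. The difference between the tissues in the HFD effect on PPARG was -0.37 on the log2 scale (fat minus liver, SE 0.54, 95% interval -1.47 to 0.73, adjusted p = 0.972 in edgeR). It turned to 0.16 without liver HFD replicate 2 and was -0.80 without liver LFD replicate 2. PPARG entered this fit through its fat counts, since it did not pass the count filter in liver alone. The liver side of the SE, interval and p rests on 0 to 18 reads per library, so they decide little.

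Across the 16 fat libraries, no gene passed as correlated with PPARG after adjustment: 0% of 13081 genes had an adjusted p under 0.05, in a permutation test of Pearson's r on log2 normalized counts. With 100000 permutations the smallest p was 1e-05, which leaves the smallest adjusted p at 0.0654. With 10000000 permutations for the 3 genes with a p of 2e-05 or less, an alternative chosen after seeing the data, all 3 passed, TM2D1, RAB11FIP3 and 1 gene without a symbol that had a mean of 22.3 normalized counts. At an unadjusted p under 0.05 the share was 37.2% of genes, and it was 3.51% without HFD replicate 2. Most of that share thus went with 1 library, the lowest in PPARG.

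By likeness, the smaller in size of Pearson's r and Spearman's rho, TM2D1, which encodes a membrane protein that binds amyloid beta, was nearest to PPARG. Its r was 0.93 (permutation p = 1e-05, adjusted p = 0.0654) and its rho 0.87 (permutation p = 4e-05, adjusted p = 0.336). TM2D1 had 211 normalized counts in HFD replicate 2, 419 to 570 in the other HFD libraries and 450.5 to 666 in LFD, so both genes were lowest and highest in the same 2 libraries. Its r was 0.85 without HFD replicate 2 and 0.76 without both HFD replicate 2 and LFD replicate 3, the 2 libraries farthest from the PPARG median, with adjusted permutation p-values of 0.616 and 1.00.

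Among the other most alike genes were NIT2, CCDC142, PTS, CEP63, RYK, NIT1, FLOT1 and DBT, with r from 0.75 to 0.88 and from 0.57 to 0.74 without HFD replicate 2. NIT2 and NIT1 are amidases of the nitrilase family, PTS makes the cofactor tetrahydrobiopterin, FLOT1 is a lipid raft protein and DBT a subunit of the branched-chain ketoacid dehydrogenase. CEP63 (chr13:75605622-75707087) and RYK (chr13:75285482-75390314) lie on the chromosome that also carries PPARG and NIT2. The genes between them were not listed. The 5 most opposed genes were RAB11FIP3 (r = -0.86), INTS7 (-0.82), POLR3A (-0.84), GAS7 (-0.88) and the collagen gene COL16A1 (-0.81). Without HFD replicate 2 these were -0.82, -0.70, -0.59, -0.73 and -0.74. RAB11FIP3, an effector of vesicle recycling, changed least and had 367 normalized counts in HFD replicate 2, the highest of 16, and 197 in LFD replicate 3, the lowest.

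**Figure D5:**
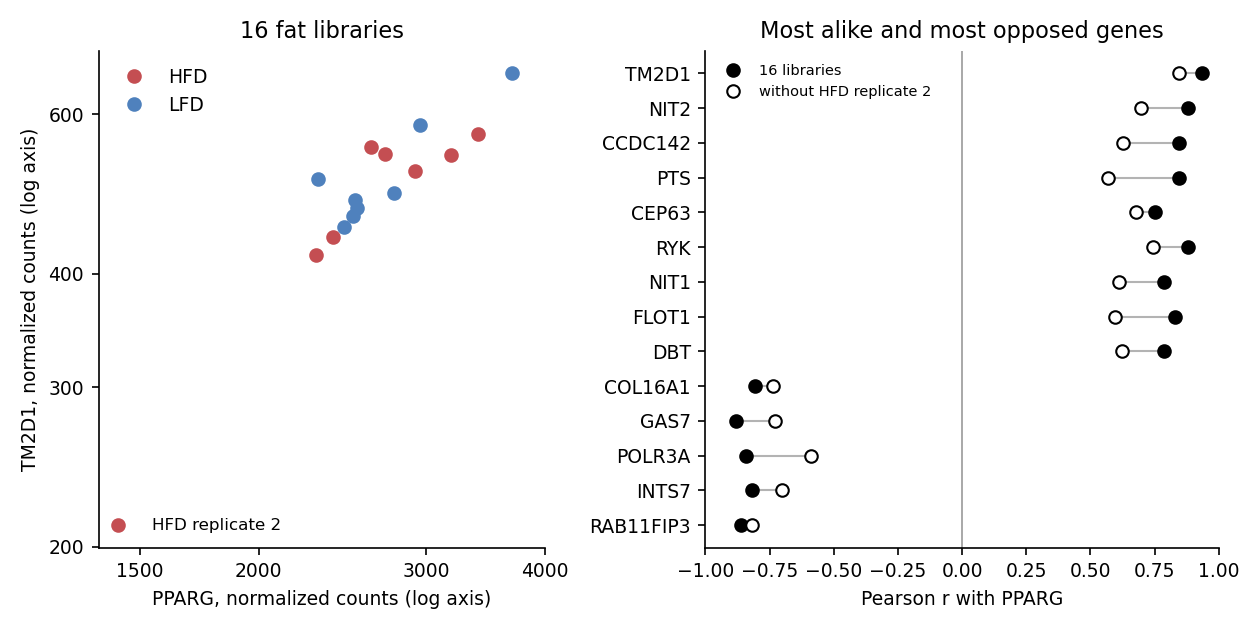
Left, PPARG (x axis) and TM2D1 (y axis) as normalized counts on log axes in 16 fat libraries, coloured by group. Right, Pearson's r with PPARG (x axis) of 9 of the 10 most alike genes and the 5 most opposed (y axis), over 16 libraries (filled) and without HFD replicate 2 (open); r of PTS moves from 0.84 to 0.57 and that of TM2D1 from 0.93 to 0.85.

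Of the known targets, 13 of 21 had r above 0 with PPARG, with a median of 0.12, beside a median of 0.04 over all genes. Without HFD replicate 2 these were 16 of 21 and 0.25, beside -0.01. FABP4 (r = 0.84, rho = 0.67) and GPD1 (r = 0.81, rho = 0.64), which makes glycerol phosphate for triglycerides, were nearest, at 0.55 and 0.53 without that library. FABP4 had 12000 normalized counts in HFD replicate 2 and 58151 to 111926 in the other 15 fat libraries. ADIPOQ had r = 0.41 and PLIN1 r = -0.03, which became 0.19 and 0.41 without that library. Among partners, RXRG had r = 0.52 and RXRA -0.27, which became 0.21 and 0.38 without HFD replicate 2. All 12 tested coregulators had r below 0, from -0.72 to -0.20, and without that library 3 were above 0. The coregulators summed to 999.4 CPM in HFD replicate 2, the library lowest in PPARG, against 209 to 354 in the other fat libraries. Genes of these lists share libraries and depth and are not independent of each other.

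In the 300-base promoter windows, a direct repeat of the half-site AGGNCA spaced by 1 base, the element known to bind PPARG with its partner, was found on either strand in 53 of 19556 genes (0.271%). It was in 0 of 24 promoters of the target list and 0 of 14 of the factors that promote adipogenesis. At a share of 0.271% over all genes, 0 is the likely count in lists of this size, so it says nothing about these lists. These letters are only not in these windows.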

How the data were processed

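The authors isolated total RNA, prepared libraries with the TruSeq RNA v2 kit and deposited unnormalized counts of reads per gene for 31908 Ensembl genes. The processing notes name FastQC, STAR, RSEM, DESeq2 and Sscrofa11.1. Whether counting used strand is not given in the sources used here. The 2 liver runs were added, all 48 columns were used, and libraries were grouped by the tissue and fat content of their labels. The study's methods describe the sequenced pigs as 16 animals from different farms, chosen by fat measured after slaughter, 8 a group. The labels give no farm. Members and lists were chosen with earlier results of these data known.

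Symbols came from a reference table (15029 of 31908 genes). CD36, CIDEA, AQP7, GK and ALOX12 had no match. Named genes were PPARG, a list of pathway genes by role, and the 10 most and 5 least alike genes with a symbol and a mean of at least 100 normalized counts; 1 of the 10 is not reported here. HFD and LFD were compared with edgeR 4.0.16 in R 4.3.3 (filterByExpr, TMM, robust quasi-likelihood test, Benjamini-Hochberg over all genes tested, threshold 0.05). Tissues and the interaction were fitted on 32 libraries. PPARG failed the liver filter, so the planned edgeR test was replaced by the exact permutation test. Intervals are 95%. Correlations used a prior count of 1. The scripts were tested on simulated data. Alternatives were DESeq2 1.42.0, limma-voom (limma 3.58.1), total count and upper quartile scaling, a replicate block, other filters (none, or 10 counts or more in all libraries), single liver runs, leaving out abundant genes (more than 1% of the counts and 4 times the tissue's median share) and each library left out. Promoters were read from the RefSeq annotation of Sscrofa11.1.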

Additional observations from a re-analysis of the deposited data

Results flagged for a closer look

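In groups of 8 libraries, the lowest or highest value was set against its neighbour by Dixon's ratio for PPARG, the pathway genes named in the text and the correlated genes. For PPARG and the pathway genes 22 of 146 groups had a value far from the rest. About 1 in 20, or 7.3, would by chance if the groups were independent. They share libraries, and some of the genes were named for their values in these data, so the 2 numbers are not a test. Of 30 groups of the correlated genes 6 did, all in fat HFD replicate 2, and no chance share applies to these, since the genes were chosen by their correlation with PPARG, which was lowest in that library. For PPARG these were fat LFD replicate 3 with 3691 normalized counts (others 2307 to 2957) and liver HFD replicate 2 with 20.3 (others 0.993 to 6.39).

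Fat HFD replicate 2 gave 13 of the 28 values. It was high in PPARA (1784 normalized counts, others 77.1 to 525), RXRA (10170), PPARGC1B (256), CREBBP (3263, others 307 to 873), EP300 (3247), LIPE (41850), GAS7 (700.4) and POLR3A (378). It was low in FABP4 (12000, others 66140 to 111900), TM2D1 (211), NIT2 (300.2), CCDC142 (417) and PTS (94.5). RXRB was high in fat HFD replicate 3 (417, others 281 to 338), PTGDS in fat HFD replicate 7 (3245, others 750.5 to 1819) and STAT5A in fat LFD replicate 4 (1949, others 1191 to 1399).

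Liver HFD replicate 2, the liver with the most PPARG, was also high in FABP4 (241 normalized counts, others 14.9 to 45.9), LPL (242, others 4.97 to 72.1), PLIN1 (243, others 44.7 to 88.8), LIPE (77.7, others 14.9 to 36.7) and ADIPOQ (411, others 1.99 to 60.8). ADIPOQ was high in liver LFD replicate 3 (54.7, others 1.89 to 15.2), whose PPARG count was 3. PPARA was high in liver LFD replicate 8 (3027, others 791.5 to 1360), the liver without a PPARG read. SREBF1 (13380), SLC2A4 (260.4) and CREBBP (951.5) were high in liver HFD replicate 8.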

How the results depend on the processing

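The tissue difference of PPARG kept its direction and its call under all 40 alternatives run (log2 8.86 to 9.65, the last with total count scaling). The HFD difference passed the threshold under none of those run, in fat, in liver or as an interaction. In fat it was -0.12 to 0.033 over the fits that each left out 1 library, turning sign without HFD replicate 2 (0.033) or LFD replicate 3 (0.02), and was 0.038 with DESeq2 without the library HFD 2. In liver it was -0.31 to 0.79 and the interaction -0.80 to 0.16 over such fits, and both turned sign only without liver HFD replicate 2. With the replicate number as a block the values were -0.08 in fat (adjusted p = 0.915 in edgeR) and 0.41 in liver without a filter. Between tissues the block joined fat and liver libraries of the same group and number, and the value was 9.03. No call changed, and 0 genes were called in fat. Same-numbered HFD and LFD libraries had correlated deviations over 0.1 in 5 of 8 fat pairs and 0 of 8 liver pairs. In fat 3 of 16 and in liver 0 of 16 libraries correlated best with their own number. The numbers were therefore not taken as pairs of HFD and LFD. Whether they pair fat with liver libraries was not checked. A minimum of 10 counts in every library gave no value for PPARG in liver or for the interaction.

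No gene passed as correlated with PPARG except with total count scaling (9254 genes, median r 0.79) and with 10000000 permutations (3 genes). Total count scaling turned the sign of r for COL16A1 (0.52), GAS7 (0.18), POLR3A (0.68), INTS7 (0.79) and RAB11FIP3 (0.69), and the 10 most alike genes then passed. The cause was not tested. The count of targets higher in fat was 16 in the main fit and 16 to 18 under its alternatives. Depth limits the liver values, which rest on 81 reads.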
